A study of Mus musculus with 12 samples.

Results

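The genes of the mitochondrial ribosome were followed across 4 conditions of mouse follicular (FO) B cells. Members were the protein-coding rows of the count table whose symbol begins with Mrpl or Mrps and a number, which gave 78 genes of the 22561 in the table. Of these, 51 encode proteins of the large subunit, 26 of the small subunit, and 1, Mrps36, is now assigned to the 2-oxoglutarate dehydrogenase complex.

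FO B cells were sorted from the spleens of C57BL6 mice aged 10 weeks and analysed by BRB-seq, which counts 1 barcoded tag per mRNA molecule near the 3′ end. The groups were FO B cells left unstimulated (Unstimulated) and FO B cells stimulated for 12 h with IFNα (0.1 µg/mL), with CpG (1 µg/mL), a DNA agonist of TLR9, or with both (CpG + IFNα), with 3 samples in each. Whether the unstimulated cells spent time in culture is not stated, so culture and stimulation cannot be told apart in comparisons with them. Nothing in the labels says that the 3 samples of a group came from separate mice or cultures, so p-values measure the spread between these samples, which may be technical.

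Mitochondria carry a small genome that encodes core subunits of the respiratory chain, and a dedicated ribosome inside the organelle translates these mRNAs. All proteins of this ribosome are encoded in the nucleus, made in the cytosol and imported, whereas its rRNAs come from the mitochondrial genome. Some of its proteins have counterparts in bacterial ribosomes and others were added in mitochondria.

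Total counts were between 922450 and 2923865 per sample, lowest in the Unstimulated group (922450 to 1103064) and highest in CpG + IFNα (1884673 to 2923865). Levels are given as TMM-scaled CPM, a gene's counts relative to the scaled total of its sample, and 9431 genes had enough counts to be tested. The 8 B cell markers examined were detected. Their summed level was 8040 to 9230 CPM in Unstimulated and 6960 to 7870 CPM in IFNα. It was 1380 to 1550 CPM in CpG and 1210 to 1320 CPM in CpG + IFNα. All 8 were lower with CpG (38.4% of all genes tested) and 3 with IFNα alone (11.9%). When IFNα was added to CpG, 5 were lower (8.83%). The 4 T cell markers in the table summed to at most 3.64 CPM, with 2 of them at 0 in every sample, and the 6 myeloid markers to 5.29 to 24.6 CPM in Unstimulated, 6.69 to 13 CPM in IFNα and 0.713 to 3 CPM in CpG. The 3 plasmacytoid dendritic markers summed to 247 to 310 CPM in Unstimulated, 427 to 448 CPM in IFNα and 153 to 165 CPM in CpG, nearly all of it Tcf4, with Siglech at 0 in every sample. The 5 plasma cell markers summed to 255 to 380 CPM, 181 to 210 CPM and 186 to 205 CPM in these groups, and to 200 to 271 CPM in CpG + IFNα. The 3 tested, Sdc1, Xbp1 and Irf4, were lower with CpG. Irf4 was higher when IFNα was added to CpG (log2 fold change 0.48, adjusted p = 0.0238 by edgeR). In CpG + IFNα the myeloid markers summed to 0.514 to 1.64 CPM and the plasmacytoid dendritic markers to 142 to 229 CPM. The 4 erythroid markers summed to 57.4 to 345 CPM in Unstimulated and 4.99 to 59.6 CPM in CpG, and the part of all these marker differences in the results was not tested. In such bulk samples, fewer cells of a type and less RNA per cell cannot be told apart.

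Of the 78 members, 75 passed the filter on low counts. The median tested member had 112 counts summed over the 3 Unstimulated samples and 454 over the 3 CpG samples. The 3 members below the filter were Mrps18b, Mrpl53 and Mrps34. Mrps18b had 1 count in each Unstimulated sample and 5, 2 and 4 counts in the CpG samples. Mrpl53 had 1 count in a single IFNα sample and 0 elsewhere. Mrps34 had 1, 0 and 0 counts in Unstimulated and 4, 1 and 1 in CpG. The last 500 exon bases of these genes overlap other annotated genes over 100%, 83.6% and 100% of their length, and reads there may not have been assigned to them. Among tested members, Mrpl24 and Mrps25 share 100% and Mrpl19 79.4% of these bases with a gene on the opposite strand. At least 1 stretch nearly identical to another locus was found for 15 members, among them Mrpl30, Mrpl42, Mrpl18, Mrpl43, Mrpl27 and Mrps36, so their counts are less certain.

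Nearly the whole set was higher in CpG than in Unstimulated. The summed level of the members was 2984 ± 167 CPM in Unstimulated, 3635 ± 272 CPM in IFNα, 7780 ± 456 CPM in CpG and 7579 ± 297 CPM in CpG + IFNα (SD, n = 3 each). This was 2.61-fold higher in CpG than in Unstimulated. As a share of all counts, the members took 0.303% ± 0.0187 in Unstimulated and 0.779% ± 0.0372 in CpG (SD, n = 3). The sum of the large subunit was 2.69-fold and that of the small subunit 2.43-fold higher.

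**Figure D1:**
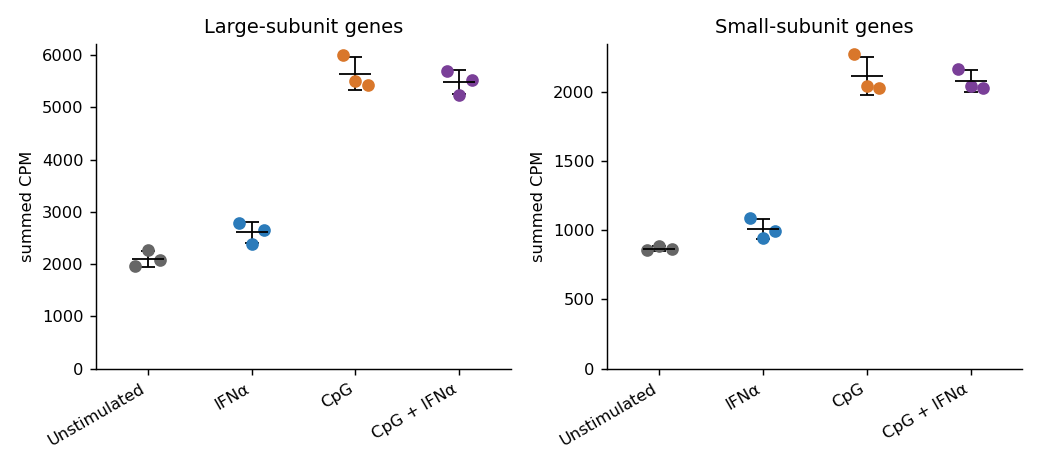
Summed CPM (vertical axis) of large-subunit and small-subunit members in each of the 3 samples of the 4 groups; horizontal bars are means and error bars SD. The CpG and CpG + IFNα samples lie above all Unstimulated and IFNα samples for both subunits, with large-subunit means of 5643 and 5480 CPM against 2101 and 2611 CPM.

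To ask how many members responded to CpG, CpG was compared with Unstimulated by edgeR's quasi-likelihood test with Benjamini-Hochberg adjustment over all genes tested, and genes with an adjusted p under 0.1 were called. With CpG, 72 of the 75 tested members were up-regulated, against 36.5% of all genes tested, and 57 of them by more than 2-fold, against 20.1%. No member was called lower, against 38.4% of all genes, with 0 members lower at an unadjusted p under 0.05 and 0 by DESeq2. The median log2 fold change was 1.39 over the tested members and -0.03 over all genes, and the members ranged from 0.23 to 2.66. In 73 of the 75, the lowest CpG sample lay above the highest Unstimulated sample, which held for 36.1% of all genes tested.

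The increase was found in both subunits and in both evolutionary classes. Among large-subunit genes 47 of 50 tested rose (median log2 fold change 1.39), and among small-subunit genes 24 of 24 (median 1.25). Genes with a bacterial counterpart rose in 43 of 46 cases (median 1.45) and mitochondrion-specific genes in 28 of 28 (median 1.29). The differences between these classes were not tested.

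The members with the smallest p were Mrpl20, Mrpl17, Mrpl15, Mrps28 and Mrpl2. Mrpl20, a large-subunit protein, was at 51.0, 59.9 and 50.3 CPM in the Unstimulated samples and at 233, 259 and 233 CPM in the CpG samples. It rose by 2.17 ± 0.13 on the log2 scale (SE, adjusted p = 1.14e-15 by edgeR). The groups lay far apart, with every CpG sample well above every Unstimulated sample.

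Mrps28, in the small subunit, had the highest fold change of all members. It was at 18.2, 21.4 and 35.3 CPM in Unstimulated and at 172, 163 and 147 CPM in CpG, a log2 fold change of 2.66 ± 0.19 (SE, adjusted p = 2.56e-14 by edgeR). Its Unstimulated samples differed among themselves by more than its CpG samples did in proportion, without any overlap between the groups. Mrpl17 was at 43.7, 44.9 and 37.1 CPM in Unstimulated and at 236, 193 and 195 CPM in CpG, a 4.98-fold rise. Mrpl15 went from 52.8, 73.8 and 80.3 CPM to 296, 283 and 252 CPM (4.01-fold), and Mrpl2 from 33.7, 37.4 and 52.9 CPM to 171, 172 and 157 CPM (3.99-fold). None of these 3 genes had overlapping groups.

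In all, 11 members rose by more than 4-fold, 46 by 2-fold to 4-fold and 15 by less. The first set held 7 genes of the large subunit (Mrpl1, Mrpl12, Mrpl15, Mrpl17, Mrpl19, Mrpl20 and Mrpl47) and 4 of the small subunit (Mrps6, Mrps22, Mrps28 and Mrps31). Those that rose by less than 2-fold were Mrpl4, Mrpl9, Mrpl30, Mrpl34 and Mrpl43 of the large subunit, Mrps9, Mrps11, Mrps12, Mrps16, Mrps21, Mrps23, Mrps24, Mrps26 and Mrps35 of the small subunit, and Mrps36.

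Mrpl12 also binds the mitochondrial RNA polymerase. It was at 17.3, 22.5 and 24.7 CPM in Unstimulated and at 122, 98.4 and 89.9 CPM in CpG, with a log2 fold change of 2.26 ± 0.18 (SE, adjusted p = 8.69e-13 by edgeR). The polymerase itself, Polrmt, had a log2 fold change of 0.08 ± 0.22 (SE, adjusted p = 0.753 by edgeR) and was not called.

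Among members with particular roles, Mrpl58, a peptidyl-tRNA hydrolase built into the large subunit, rose 2.34-fold and Mrps30, which despite its name sits in the large subunit, 2.10-fold. Of the 3 paralogs related to bacterial S18, Mrps18c, counted here as the bacterial counterpart, rose 2.16-fold. Mrps18a, counted with the mitochondrion-specific genes rose 2.48-fold, and Mrps18b, counted likewise, had too few counts. Mrps36 was among the lowest members, at 15.7 ± 1.55 CPM in Unstimulated and 24 ± 5.13 CPM in CpG (SD, n = 3), and its log2 fold change of 0.58 (adjusted p = 0.0357 by edgeR) was no longer called without CpG replicate 2 (adjusted p = 0.126), with DESeq2 (0.141) or with counts thinned to the smallest total (0.17).

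The 3 tested members that were not called, Mrpl14, Mrpl10 and Mrpl24, all belong to the large subunit. Mrpl14 was at 19.1, 38.5 and 43.2 CPM in Unstimulated and at 46.0, 31.4 and 39.9 CPM in CpG, and these ranges overlapped. Mrpl10 had a log2 fold change of 0.33 ± 0.23 (adjusted p = 0.203 by edgeR) and Mrpl24 of 0.48 ± 0.27 (SE, adjusted p = 0.109 by edgeR). Mrpl24 stayed uncalled in 4 of the 12 fits that left out 1 sample and was called in the others, with an adjusted p of 0.0661 without Unstimulated replicate 3 and 0.256 without Unstimulated replicate 1.

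**Figure D2:**
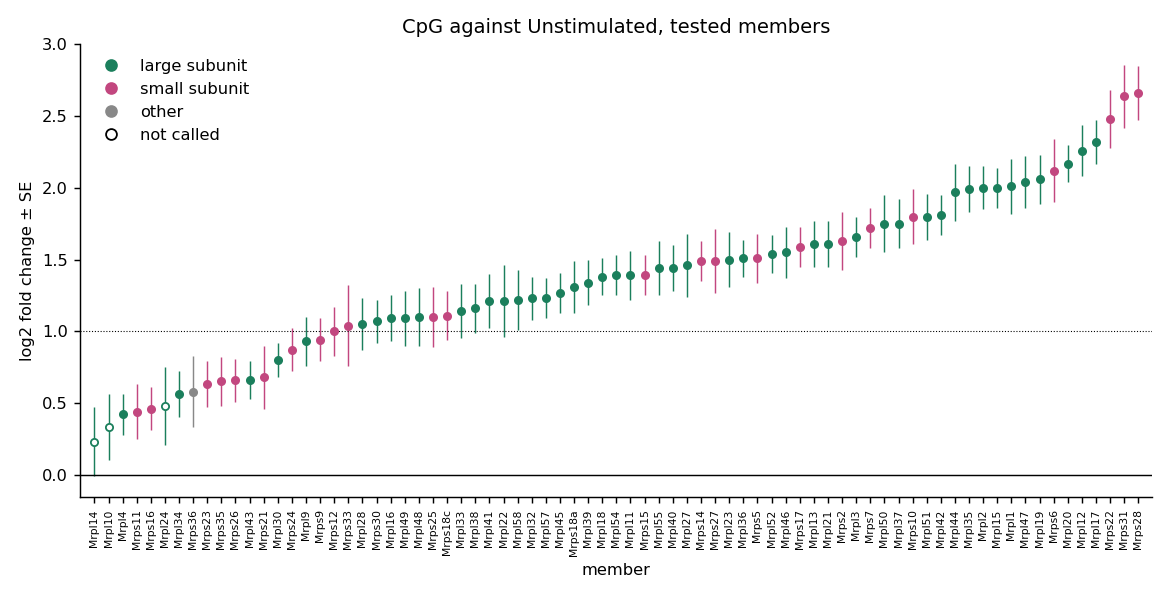
Log2 fold change with SE (vertical axis) of the 75 tested members in CpG against Unstimulated, in rising order and coloured by subunit; open points were not called and the dotted line marks 2-fold. All points lie above 0, from 0.23 for Mrpl14 to 2.66 for Mrps28, and the 3 open points are large-subunit genes.

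Because CPM here counts tags and not bases, levels were not divided by length. Over all samples, among the 75 tested members, those with the highest mean CPM were Mrpl30, Mrpl15 and Mrpl52 and those with the lowest Mrps36, Mrpl24 and Mrps33. Mrpl52 was at 81.7 ± 13.9 CPM in Unstimulated and 236 ± 7.20 CPM in CpG, and Mrps33 at 10.8 ± 1.04 and 22.3 ± 2.59 CPM (SD, n = 3 each). The order differed by group: Mrpl30 (125 CPM), Mrpl43 (89.7 CPM) and Mrpl52 led in Unstimulated, and Mrpl15 (277 CPM), Mrpl20 (242 CPM) and Mrpl52 in CpG, where Mrpl30 was at 217 CPM. The number of tested members above 50 CPM was 20 in Unstimulated and 65 in CpG. The order of levels across members was less alike between Unstimulated and CpG (Spearman's rho 0.746) than between CpG and CpG + IFNα (0.972), a description across genes, which are not independent replicates.

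To place the members beside the rest of the translation machinery, the same comparison was read in lists of related genes. Of the cytosolic ribosomal protein genes, 60 of 80 tested were higher and 2 lower with CpG, with a median log2 fold change of 0.55. Their summed level was 41.7 ± 1.70 times that of the members in Unstimulated and 22.4 ± 0.287 times in CpG (SD, n = 3). Of the protein-coding genes of the mitochondrial genome, whose mRNAs the mitochondrial ribosome translates, 8 of 10 tested were lower with CpG. Their summed level was 10.2 ± 1.18 times that of the members in Unstimulated and 2.55 ± 0.439 times in CpG (SD, n = 3).

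**Figure D3:**
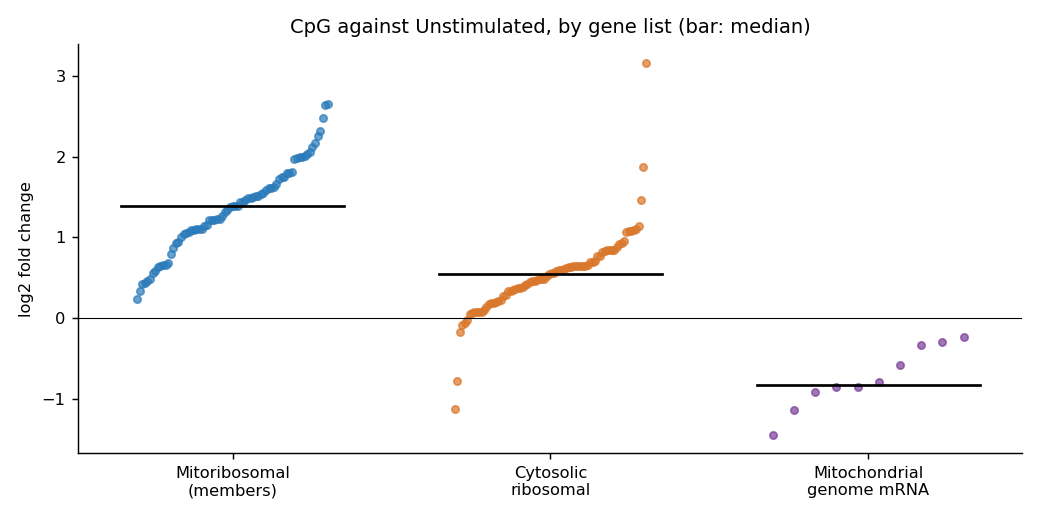
Log2 fold change in CpG against Unstimulated (vertical axis) for the tested genes of 3 lists, each point 1 gene and each bar the median of the list. The medians are 1.39 for mitochondrial ribosomal proteins, 0.55 for cytosolic ribosomal proteins and -0.83 for mRNAs of the mitochondrial genome.

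The mitochondrial ribosomal proteins with other names followed the members, with 5 of 5 up-regulated by CpG: Gadd45gip1 (log2 fold change 1.85), Chchd1 (1.71), Aurkaip1 (1.36), Ptcd3 (0.69) and Dap3 (0.65). Over all genes tested, 36.5% were higher and 38.4% lower with CpG, and the shorter lists are read against these shares. Of the genes for assembly of the mitochondrial ribosome, 14 of 24 were higher. Translation factors of the mitochondrion were higher in 9 and lower in 1 of 14, among them Tufm, the elongation factor that carries tRNA to the ribosome, at 1.48. Mitochondrial aminoacyl-tRNA synthetases were higher in 8 and lower in 2 of 17, and mitochondrial transcription genes higher in 2 of 5. The shares called higher among the synthetases, the transcription genes and the regulators lay near that of all genes, so their counts are no result about these lists. Of the regulators known from mitochondrial biogenesis, 3 of 8 were higher and 1 lower: Myc (1.66), Pprc1 (1.65) and Gabpa (0.93) rose and Esrra fell by 1.64 on the log2 scale, whereas Nrf1 was at 0.03 (adjusted p = 0.894 by edgeR). With IFNα alone, 1 of the 8 was higher and 1 lower, against 12.4% and 11.9% of all genes. The lower one was Myc, at -2.28 ± 0.18 (SE, adjusted p = 4.69e-12 by edgeR). A link between these regulators and the members was not tested.

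Far fewer members differed between IFNα alone and Unstimulated. Compared with Unstimulated, 13 of 75 were up-regulated, against 12.4% of all genes tested, and 1 was lower, against 11.9%. The median log2 fold change was 0.23 over the members and -0.001 over all genes, and 63 of 75 members lay above 0, against 49.9% of all genes. Scaled by library size only, the medians were 0.15 and -0.083. The number called higher was 20 without IFNα replicate 2 and 9 without Unstimulated replicate 3, and the number by DESeq2 was 9. Beyond 2-fold only Mrpl30 and Mrps31 were called.

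Mrpl30, a large-subunit protein, had the smallest p with IFNα. It was at 116, 134 and 125 CPM in Unstimulated, at 279, 238 and 272 CPM in IFNα, at 235, 197 and 219 CPM in CpG and at 307, 272 and 323 CPM in CpG + IFNα. Its log2 fold change was 1.07 ± 0.12 with IFNα alone (SE, adjusted p = 2.78e-08) and 0.80 ± 0.12 with CpG alone (SE, adjusted p = 1.01e-06 by edgeR). The IFNα samples did not overlap the Unstimulated samples, and each was also above every CpG sample.

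Mrps31, in the small subunit, was at 10.9, 6.42 and 11.5 CPM in Unstimulated and at 20.2, 20.1 and 23.7 CPM in IFNα, a log2 fold change of 1.12 ± 0.27 (SE, adjusted p = 0.00245 by edgeR). With CpG it reached 61.4, 62.0 and 60.9 CPM. The groups were separate, and its level with IFNα stayed well under that with CpG. Its Unstimulated counts were at or near the smallest of the tested members, so its fold changes are less certain. The lowest counts of a tested member were 31 summed over a group and 6 in a sample.

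Mrpl44 was at 15.5, 23.5 and 18.5 CPM in Unstimulated and at 39.4, 37.1 and 33.6 CPM in IFNα (log2 fold change 0.94, adjusted p = 0.00239 by edgeR). Mrpl45 was at 68.2, 61.0 and 47.7 CPM in Unstimulated and at 88.8, 94.2 and 90.8 CPM in IFNα (0.64, adjusted p = 0.00202 by edgeR). Mrpl43 was at 94.6, 88.8 and 85.6 CPM and at 154, 114 and 132 CPM (0.56, adjusted p = 0.00325 by edgeR). All 3 are mitochondrion-specific proteins of the large subunit, and in each the IFNα samples lay above the Unstimulated samples. Among all tested members, 5 of 28 mitochondrion-specific genes and 8 of 46 with a bacterial counterpart were called higher with IFNα. By subunit these were 8 of 50 large and 5 of 24 small, against 12.4% of all genes tested, so the 3 genes do not stand for their class.

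Mrpl12 was the 1 member lower with IFNα, at 15.1, 14.6 and 11.4 CPM, with a log2 fold change of -0.65 ± 0.26 (SE, adjusted p = 0.081 by edgeR). This call was lost with DESeq2, where 0 members were lower, and when any of Unstimulated replicates 2 and 3 or the 3 IFNα replicates was left out.

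**Figure D4:**
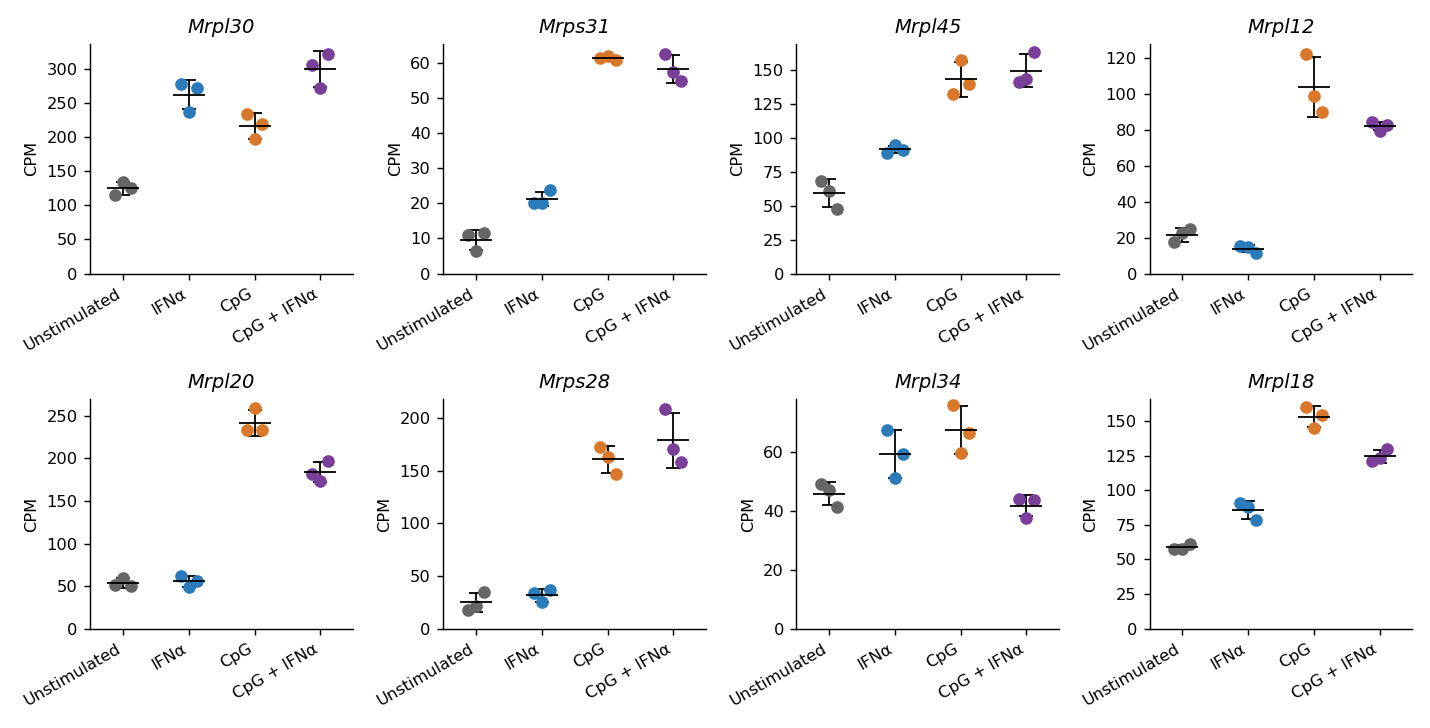
CPM (vertical axis) of 8 members in each of the 3 samples of the 4 groups, with the mean and SD. Mrpl30 is above 230 CPM in all IFNα samples and below 140 CPM in all Unstimulated samples, and Mrpl34 is lower in every CpG + IFNα sample than in every CpG sample.

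The start of Mrpl30 (chr1:37890477-37898535, plus strand, GRCm38) lies 66 bases from that of Mitd1, a gene on the opposite strand, and the stretch is shown because both genes rose with IFNα. Mitd1 had a log2 fold change of 2.61 ± 0.17 with IFNα (SE, adjusted p = 1.66e-14 by edgeR) and of 1.29 when IFNα was added to CpG. A part of the RefSeq promoter window of Mrpl30 (GRCm38.p6, chr1:37890352-37890526, plus strand) is printed, with the 65 bases between the genes in capitals.
Mrpl30: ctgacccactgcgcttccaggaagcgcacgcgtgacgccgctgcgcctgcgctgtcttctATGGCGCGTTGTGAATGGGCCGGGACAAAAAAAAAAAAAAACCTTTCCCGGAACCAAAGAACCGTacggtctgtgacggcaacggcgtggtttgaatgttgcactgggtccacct
The core of the interferon-stimulated response element, GAAANNGAA on either strand, was not found in the whole window of Mrpl30 (chr1:37890227-37890526) and was found 1 time in that of Mitd1, and these letters occur in 9.33% of member windows, 7.52% of windows of tested genes and 8.56% of all windows. A start within 1000 bases of a start on the opposite strand was present in 33 members, 42.3%, against 15.7% of the 14012 protein-coding genes matched. A partner was tested in 26 pairs, and Mrps11 and Mrpl46, which are partners of each other, were left out as members. In the 22 remaining pairs in which both genes were tested, the partners had a median log2 fold change of 0.41 with CpG, with 10 higher and 5 lower (36.5% and 38.4% of all genes), and the members of the same pairs had a median of 1.42, with 21 higher. Wdfy1, the partner of Mrpl44, had a log2 fold change of 0.34 ± 0.22 with IFNα alone (SE, adjusted p = 0.319 by edgeR) and of 1.18 ± 0.21 when IFNα was added to CpG (SE, adjusted p = 0.000101 by edgeR). Mrpl44 itself was at 0.94 and 0.06 in these comparisons.

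Promoter windows (250 bases before to 50 after a RefSeq start) were matched for 69 of the 78 members, with 75 windows. They were searched on both strands for short letters of known factors, and a match is a description, not a bound site. The E-box CACGTG was in 9.33% of member windows, 11% of windows of tested genes and 7.15% of all windows. The NRF1 letters GCGCATGCG were in 9.33%, 4.15% and 1.75%, the ETS letters CCGGAAGT in 16.0%, 9.54% and 3.89%, and the YY1 letters ATGGCGGC in 16.0%, 5.70% and 2.24%. CCAAT was in 40.0%, 37.9% and 37.4%. The 3 nearly identical windows of Mrpl2 count separately in the E-box share. Counted once per gene, the E-box was in 7.25% of member genes and 13% of tested genes, the NRF1 letters in 10.1% and 4.84%, the ETS letters in 17.4% and 11%, the YY1 letters in 17.4% and 6.90%, and CCAAT in 39.1% and 43.1%. For 3 of the 5 members with the smallest p in CpG, the pieces below are shown with 1 match each in capitals, and other letters searched are left in lower case. The others, Mrpl15 and Mrps28, had no matched window and were not searched. The capitals mark the E-box in Mrpl20 (chr4:155802798-155802897, plus strand) and Mrpl2 (chr17:46646043-46646142, plus strand) and the NRF1 letters in Mrpl17 (chr7:105811045-105811144, minus strand), all RefSeq GRCm38.p6.
Mrpl20: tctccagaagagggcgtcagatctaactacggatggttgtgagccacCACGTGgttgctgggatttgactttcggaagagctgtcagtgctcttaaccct
Mrpl2: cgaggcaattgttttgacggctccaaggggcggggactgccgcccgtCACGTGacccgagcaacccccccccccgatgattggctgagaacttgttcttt
Mrpl17: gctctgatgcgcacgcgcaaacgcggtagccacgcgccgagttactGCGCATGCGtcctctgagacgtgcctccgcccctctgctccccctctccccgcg

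With CpG + IFNα, 67 of 75 members were higher than in Unstimulated, against 37.6% of all genes tested, 53 of them by more than 2-fold, against 20.3%. None was called lower, against 38.8% of all genes, with 0 lower at an unadjusted p under 0.05 by edgeR and 0 by DESeq2. The median log2 fold change was 1.33. Against IFNα alone, 64 were higher (36.1% of all genes), 43 of them by more than 2-fold (18.7%), and 1, Mrpl34, was lower (39.8%), with a median of 1.07. Both comparisons share the CpG + IFNα samples.

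Adding IFNα to CpG changed few members. Compared with CpG alone, 1 member was higher, against 6.54% of all genes tested, and 5 were lower, against 8.83%, with a median log2 fold change of -0.07. Without CpG replicate 1 or CpG + IFNα replicate 1 the number lower was 3, and DESeq2 also gave 3. The 1 higher member was Mrpl30, with a log2 fold change of 0.47 ± 0.11 (SE, adjusted p = 0.0031 by edgeR).

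Mrpl34, a small protein of the large subunit, fell most. It was at 76.1, 59.9 and 66.4 CPM in CpG and at 44.2, 37.6 and 43.7 CPM in CpG + IFNα, a log2 fold change of -0.70 ± 0.15 (SE, adjusted p = 0.00084 by edgeR). Its CpG + IFNα samples lay in or below the range of its Unstimulated samples, 49.1, 47.1 and 41.5 CPM. Mrpl42 (log2 fold change -0.48, adjusted p = 0.00423), Mrpl20 (-0.39, adjusted p = 0.0116), Mrpl33 (-0.48, adjusted p = 0.0408) and Mrpl18 (-0.30, adjusted p = 0.0662 by edgeR) were also lower. The calls of Mrpl33 and Mrpl18 were lost with DESeq2, without the filter and when CpG replicate 1, CpG replicate 3 or CpG + IFNα replicate 1 was left out. That of Mrpl18 was also lost with another scaling (RLE) and without rRNA and mitochondrial-genome genes. It was lost too without Unstimulated replicate 3 or CpG + IFNα replicate 2. The call of Mrpl20 was lost without the filter (adjusted p = 0.112 by edgeR).

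Whether the IFNα effect differed with and without CpG was tested by the interaction of the stimuli. The effect without CpG is taken against Unstimulated, so culture and stimulation cannot be told apart in the interaction either. For 12 members the effect was lower in the presence of CpG, against 7.58% of all genes tested, and for 0 it was higher, against 5.84%, with 1 higher at an unadjusted p under 0.05 by edgeR and 0 by DESeq2. The median interaction over the tested members was -0.29 on the log2 scale, against -0.05 over all genes. The number fell to 6 with DESeq2 and to 7 without Unstimulated replicate 3.

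Mrpl18 was at 57.3, 57.8 and 60.9 CPM in Unstimulated and 90.8, 87.6 and 78.6 CPM in IFNα, but at 160, 145 and 154 CPM in CpG and 121, 123 and 130 CPM in CpG + IFNα. IFNα thus went with higher levels without CpG and lower levels with it, and the interaction was -0.84 ± 0.18 (SE, adjusted p = 0.00154 by edgeR). For Mrps31 the log2 fold change with IFNα was 1.12 without CpG and -0.07 with it, an interaction of -1.19 ± 0.30 (SE, adjusted p = 0.01 by edgeR). With counts thinned to the smallest total the interaction of Mrps31 was -1.87, and it rests on the low Unstimulated counts of this gene. Across the 75 members the IFNα effects without and with CpG, which share no samples, had a Pearson's r of 0.379 and a Spearman's rho of 0.369, against 0.489 and 0.218 across all genes tested, so which set had the closer effects depended on the measure. The CpG effects without and with IFNα had an r of 0.859 and a rho of 0.883, against 0.899 and 0.902 across all genes, all given as a description across genes.

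**Figure D5:**
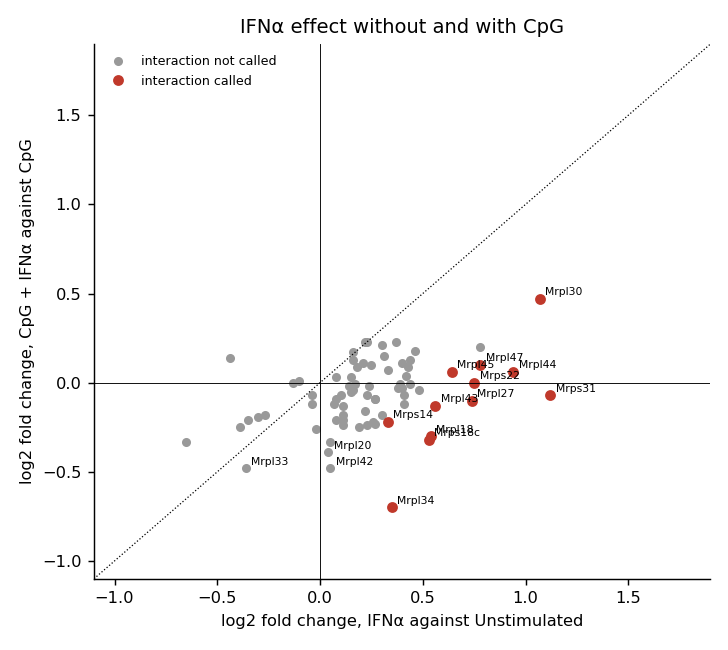
Log2 fold change of IFNα against Unstimulated (horizontal axis) and of CpG + IFNα against CpG (vertical axis) for the 75 tested members; the dotted line marks equal effects and red points the 12 members with a called interaction. All red points lie below the line, and Mrpl30 is the red point highest on the vertical axis, at 1.07 and 0.47.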

How the data were processed

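BRB-seq libraries were made from 12 samples of FO B cells, 3 in each of 4 groups named in the labels. The authors deposited 1 table of raw UMI counts per gene, and per the labels' processing notes and the study's methods the tools were UMI-tools 1.1.2, Trim Galore 0.6.7, HISAT2 2.2.1 and featureCounts 2.0.1 on GRCm38, with the Tlr9 annotation extended by 3 kb. The annotation release and the strand setting of counting are not given in the sources used here, so reads of overlapping genes on opposite strands may not be told apart. Intervals and floors were not needed, and the UMIs limit PCR duplicates.

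Counts were fitted in edgeR 4.0.16 (R 4.3.3) with TMM scaling, filterByExpr (minimum count 10) and the quasi-likelihood test, in 1 fit of all 4 groups with 8 residual degrees of freedom. A gene was called at a Benjamini-Hochberg adjusted p under 0.1 over 9431 genes, and a fold change over 2 was counted besides. The study gives this fold threshold in its figure legends and a log2 fold change over 2 in its methods. The SE is the log2 fold change divided by the square root of its F value. DESeq2 1.42.0, other scalings and filters, a replicate block, thinned counts and leaving out each sample were alternatives. Same-numbered samples of different groups had correlated deviations (r over 0.1) in 5 of 18 pairs, all of them between stimulated groups. Their r was between -0.07 and 0.2, against -0.2 to 0.06 for pairs with other numbers. The labels do not say what the numbers mean, so the main fit was unpaired and may leave out a shared origin. On simulated counts for CpG against Unstimulated (9224 genes tested), the fit called 67.5% of 200 genes changed 2-fold, with 9 unchanged genes called, and in a second simulation (9265 genes tested) 97.5% of 200 genes changed 4-fold, with 18 unchanged genes called. A higher pass mark on recovered genes, first set for the 2-fold simulation, was not met (135 recovered), and the check was replaced by limits on bias and on the share of false calls.

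The members and gene lists were chosen with earlier results of these data known. Named members were up to 5 in each direction with the smallest p among those called with IFNα, with CpG, with IFNα added to CpG and in the interaction, the 3 with the highest and the 3 with the lowest mean CPM, and Mrpl12, Mrps18a, Mrps18b, Mrps18c, Mrpl58, Mrps30 and Mrps36, and members below the filter by their counts. A part of the rule for members called against the common direction with CpG named none. From the other lists the rule took up to 3 genes in each direction, and Polrmt, Nrf1, Dap3, Ptcd3 and Tufm were named besides, after their values were seen. Overlap of 3′ ends, near-identical copies, starts on opposite strands with their partner genes, ratios to other lists, correlations between effects and the promoters printed were also chosen after the members' values had been seen. Gene positions came from GENCODE M21 (GRCm38) and promoter windows from RefSeq (GRCm38.p6).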

Additional observations from a re-analysis of the deposited data

Results flagged for a closer look

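For 12 members the interaction term of the edgeR fit was called (adjusted p under 0.1), and in each the log2 change with IFNα was lower when CpG was present. The change without CpG is taken against Unstimulated, whose culture is not stated, so culture and stimulation cannot be told apart in it. The interaction on the log2 scale was -0.84 for Mrpl18, -1.06 for Mrpl34, -1.19 for Mrps31, -0.68 for Mrpl43, -0.85 for Mrps18c and -0.61 for Mrpl30. It was -0.88 for Mrpl44, -0.57 for Mrpl45, -0.55 for Mrps14, -0.68 for Mrpl47, -0.84 for Mrpl27 and -0.74 for Mrps22, where the adjusted p was between 0.0329 for Mrpl44 and 0.0992 for Mrps22. Mrpl18, Mrpl30, Mrpl43 and Mrpl27 have a near-identical copy elsewhere in the genome, and the part of these copies in the result was not tested. No group had the 4 samples needed to look for single samples that stand apart.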

How the results depend on the processing

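Of 672 values of the 32 named log2 fold changes under alternatives, 636 kept their direction and side of the threshold, 27 were no longer called, 9 became called and 0 changed sign. Of 288 values of the 12 counts of members, 258 were within 1.5 times of the reported count. With IFNα alone, 2 members were higher and 0 lower beyond 2-fold. The number lower was 2 with library size only or upper quartile scaling, and 0 with DESeq2, without the filter, with only the groups compared, with thinned counts and at an adjusted p under 0.05. With IFNα added to CpG, the number lower was 3 with DESeq2, 2 without the filter and 0 beyond 2-fold, and the number higher was 0 beyond 2-fold. Against IFNα alone, 0 members were lower with CpG + IFNα beyond 2-fold. The number with a lower interaction was 7 with library size only (1 higher), without the filter, without rRNA and mitochondrial-genome genes and at an adjusted p under 0.05, 6 with DESeq2 and 2 beyond 2-fold. The cause was not tested, apart from the stricter thresholds, which lower the counts by construction.

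Leaving out 1 sample at a time gave 9 to 20 members higher and 0 to 2 lower with IFNα, 71 to 74 higher with CpG, 66 to 69 higher with CpG + IFNα, 3 to 6 lower with IFNα added to CpG, and 7 to 17 with a lower interaction. Without rRNA and mitochondrial-genome genes, the summed level was 3231 CPM in Unstimulated, 8270 in CpG and 8253 in CpG + IFNα. Upper quartile scaling moved the median of all genes to -0.136 with CpG.

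With the replicate number as a block, 15 members were higher and 1 lower with IFNα, 72 higher with CpG, 67 higher with CpG + IFNα, 6 lower with IFNα added to CpG, and 14 had a lower interaction. The numbers share no stated origin, and 10 of 12 samples correlated best with samples of their own number, a hint from the data and not the design. Depth limits the lowest members, since the smallest summed count of a tested member in a group was 31.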
